A study of Saccharomyces cerevisiae with 22 samples.

Results

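The genes described here are 30 genes of Saccharomyces cerevisiae whose products build, divide, distribute or switch on the peroxisome. They were listed by name from known function, in 4 roles: 14 genes for the import of matrix proteins, 3 for assembly and transport at the membrane, 11 for division and inheritance, and 2 for the transcription factors that regulate the organelle. All 30 were found among the 5449 genes that the arrays could name, each by 1 probe set. Strain CEN.PK113-1A, a haploid prototroph of mating type alpha, was grown in glucose-limited chemostats that differed in the oxygen content of the feed gas, and the question was how transcript levels depend on oxygen provision. RNA was taken at steady state with 0% oxygen (4 samples), 0.5% (4 samples), 1% (6 samples), 2.8% (4 samples) and 20.9% oxygen (4 samples), and each of the 22 samples was hybridised to 1 Affymetrix array. Ergosterol and a polysorbate detergent that supplies oleic acid were in the medium at every level, so the cells could obtain sterols and unsaturated fatty acids without oxygen. Cultures fed 2.8 or 20.9% oxygen were, per the methods, prone to oscillate. To prevent this they received extra cells in mid to late exponential growth when the medium feed began. The methods name no such step for the lower levels. Its part cannot be told apart from that of oxygen between 2.8 or 20.9% and the lower levels. Per the methods, 4 cultures were analysed at 0, 1 and 20.9% oxygen but only 2 at 0.5 and 2.8%, so the 4 samples at 0.5 and at 2.8% come from 2 cultures each. At 1% oxygen the methods describe 4 samples from 1 of the cultures. Replicate 1 is not among the 6 samples used here, so whether all 4 are included is not known. Which samples share a culture is not labelled. Tests that involve 0.5, 1 or 2.8% oxygen thus partly measure the spread within a culture, and all tests share 1 estimate of spread over the 5 levels.

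In yeast the peroxisome is where all beta-oxidation of fatty acids takes place, and the catalase that disposes of the hydrogen peroxide formed in the first step is held in the same compartment. Its matrix enzymes are made in the cytosol and carried in, already folded, by receptors that dock at the membrane, release their cargo and are recycled by ubiquitination and extraction. Many genes of the organelle are repressed by glucose, and many are switched on by oleate through the transcription factors Oaf1 and Pip2. New peroxisomes arise mainly by growth and division of existing ones, which are then shared between mother and bud.

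ANB1, a gene repressed by oxygen, separated the arrays labelled 0% from the rest, with 5.75 to 6.54 on the log2 scale in the 18 arrays with oxygen and 11.44 to 11.64 in the 4 arrays at 0% oxygen. HEM13, a haem synthesis gene repressed by oxygen, also separated the 20.9% arrays, at 9.12 to 9.38, from those at intermediate levels, at 9.98 to 10.48. COX5B, the hypoxic isoform of a cytochrome oxidase subunit, was at 7.76 to 8.15 with 0.5% oxygen, 7.58 to 7.79 with 1%, 6.65 to 7.31 with 2.8% and 6.33 to 6.87 with 20.9%, so that only the 2.8 and 1% arrays among neighbouring levels with oxygen did not overlap. MF(ALPHA)1, the gene for the pheromone of alpha cells, was at 12.39 to 14.20 in all arrays, whose medians lay between 9.04 and 9.10. The other 3 alpha cell markers were low at 0% oxygen, with 6.36 to 7.19 for MF(ALPHA)2, 7.93 to 8.54 for SAG1 and 8.54 to 9.40 for STE3, and all 4 were highest at intermediate oxygen. The 6 markers of a cells ran from 4.66 to 8.67 over all arrays. A pair of arrays stood apart from the others of their level. The standard deviation of all genes about their level's mean was 0.344 for 20.9% oxygen replicate 4 and 0.322 for 2.8% oxygen replicate 4, and the lowest over the 22 arrays was 0.0779. Replicate 4 at 20.9% oxygen held the highest value of its level for 25 of the 30 genes (over all genes, 39.2%), and replicate 4 at 2.8% oxygen held the lowest value for 17 of the 30 (over all genes, 36.7%). Replicate 1 at 0% oxygen also held the lowest value for 17 of the 30 (over all genes, 29.3%). The fatty acid oxidation and other enzymes that peroxisomes contain moved with them: the mean of 15 such genes was 12.10 in the 20.9% array against 11.20 to 11.37 in the other 3 of its level, and 9.72 in the 2.8% array against 10.42 to 10.58 in the others. Replicates 2 and 4 at 2.8% oxygen were also collected differently from the others, by direct centrifugation. What these differences contributed to the results was not tested, and calls that change without the 2 arrays are given where they arise.

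With 20.9% against 0% oxygen, 20 of the 30 genes rose and 1, PEX31, fell at an adjusted p below 0.01 (limma, Benjamini-Hochberg over all 5449 genes). Of all genes, 50.6% were called in the same comparison, 21.9% as higher and 28.6% as lower. The median log2 difference over the 30 genes was 0.62, or 1.54-fold, against -0.07 over all genes, and the values ran from -0.46 for PEX31 to 2.11 for PEX18. At least a 2-fold rise was seen in 4 genes, the receptor partners PEX18 and PEX21, the membrane protein gene PEX3 and the transporter gene ANT1. The samples of the 2 levels did not overlap for 20 genes that were higher and 1 that was lower at 20.9% oxygen, against 21.8 and 28.9% of all genes. Across the 5 levels together, 22 of the 30 genes responded to oxygen in the F test, and of all genes 60.0% did. Since each array measures RNA from a whole culture, a larger share of cells expressing a gene and more transcript in every cell cannot be told apart.

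The highest mean lay at 20.9% oxygen for 23 of the 30 genes, while 30.5% of all genes peaked there, and the lowest mean lay at 0% oxygen for 21 of the 30, against 23.8% of all genes. Averaged over the 30 genes, the log2 level of single arrays was 8.52 to 8.63 at 0% oxygen, 8.72 to 8.81 at 0.5%, 8.74 to 8.79 at 1%, 8.74 to 8.90 at 2.8% and 9.04 to 9.39 at 20.9%. The arrays at 20.9% and at 0% oxygen each stood clear of the 3 intermediate levels in this mean, and the intermediate levels overlapped.

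**Figure D1:**
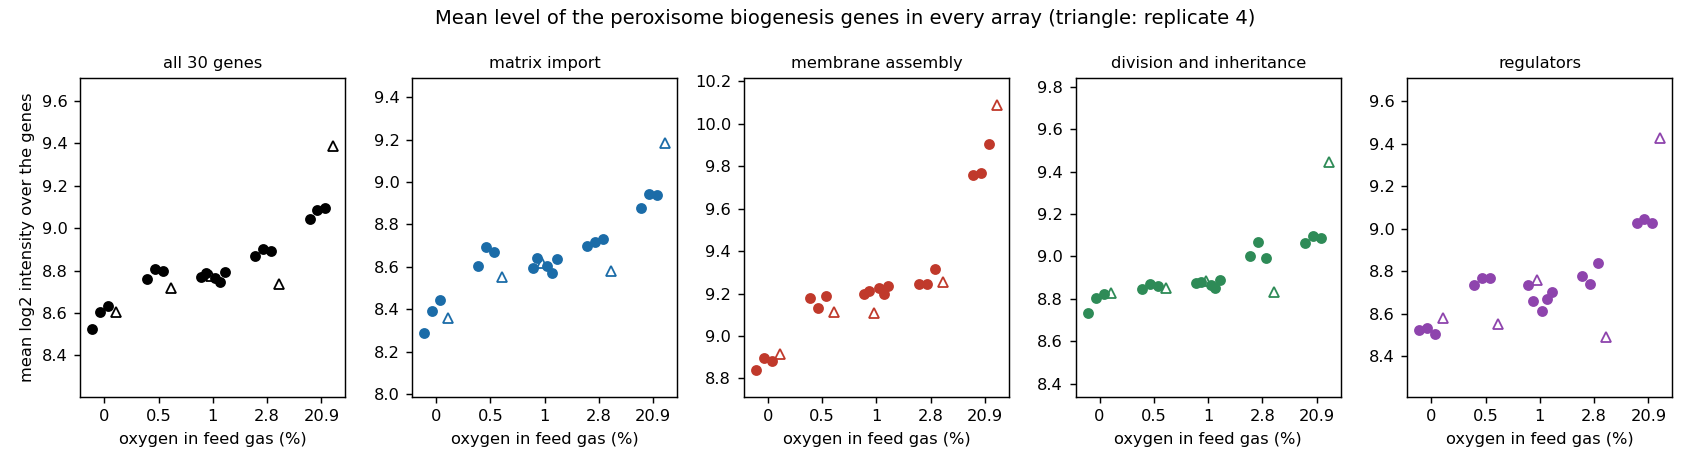
Each point is 1 array, placed by the oxygen content of its feed gas on the x axis and by the mean log2 intensity of the genes of 1 role on the y axis, with replicate 4 of each level as an open triangle. In the panel of all 30 genes the arrays at 20.9% oxygen lie between 9.04 and 9.39 and those at 0% oxygen between 8.52 and 8.63, with replicate 4 on top at 20.9% and lowest at 2.8% oxygen.

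Among the 14 genes for matrix import, 9 rose with 20.9% against 0% oxygen and none fell, with a median log2 difference of 0.62. The receptors and their partners were all among the 9. Cargo with a signal of the second type is carried by the receptor Pex7 with one of the co-receptors Pex18 and Pex21, and PEX18 showed the largest difference of all 30 genes. PEX18 was at 7.60, 8.12, 7.68 and 8.44 in the 4 samples at 20.9% oxygen and at 5.71, 5.95, 5.88 and 5.85 at 0% oxygen. Between them it was at 6.65, 6.91, 6.75 and 6.22 at 0.5% oxygen, at 6.19, 6.48 and 6.83 (lowest, median and highest) at 1%, and at 6.42, 6.82, 6.65 and 5.73 at 2.8%. Every sample at 20.9% oxygen was above every other sample, and all intermediate samples but replicate 4 at 2.8% were above those at 0%. The log2 difference between 20.9 and 0% oxygen was 2.11 ± 0.21 (SE, adjusted p = 3.5e-08), a 4.33-fold rise, and that between 20.9 and 2.8% was 1.55 ± 0.21 (adjusted p = 5.4e-06). PEX18 belonged to the dimmest 25% of genes, and the deposited values carry no detection calls, so whether its level at 0% oxygen was above the background of the array cannot be told. PEX13, PEX17, PEX4, PEX27, PEX31, PEX32 and INP2 were also among the dimmest 25%. Whether their levels were above the background cannot be told either.

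PEX21, the other co-receptor gene, was at 9.45, 9.40, 10.30 and 9.01 at 20.9% oxygen and at 8.24, 8.26, 8.13 and 7.68 at 0% oxygen. It was at 8.41, 8.42, 8.41 and 8.55 at 0.5% oxygen, at 8.37, 8.50 and 8.70 at 1%, and at 9.12, 9.04, 9.13 and 9.31 at 2.8%. Its samples at 2.8% oxygen were all above those at 0.5 and 1% and overlapped with those at 20.9%, where replicate 4 was the lowest and not, as for most of the genes, the highest. The rise was 2.76-fold with 20.9% against 0% oxygen (log2 difference 1.46 ± 0.18, adjusted p = 5.1e-07). Between 2.8 and 0.5% oxygen the difference was 0.70 ± 0.18, which missed the threshold (adjusted p = 0.012) and passed it without the 2 replicate 4 arrays (0.65, adjusted p = 0.0089). Between 20.9 and 2.8% oxygen the difference of 0.39 (adjusted p = 0.069) was 0.62 without these arrays and passed the threshold (adjusted p = 0.0062). PEX7, the receptor that both serve, ran from 9.55 to 9.99 at 20.9% oxygen and from 8.90 to 9.24 at 0%, and rose by 0.63 ± 0.10 on the log2 scale (adjusted p = 8.9e-06). Between 0.5 and 0% oxygen the rise was 0.46 ± 0.10 (adjusted p = 7.1e-04), and between 20.9 and 2.8% oxygen the difference was 0.10 with a 95% interval of -0.10 to 0.30.

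PEX5 encodes the receptor for the signal of the first type, which most matrix enzymes carry at their C-terminus. It was at 9.41, 9.47, 9.64 and 10.02 at 20.9% oxygen and at 8.56, 8.76, 8.85 and 8.91 at 0% oxygen. The intermediate samples were at 8.97, 8.91, 8.97 and 8.90 with 0.5% oxygen, at 8.76, 9.05 and 9.15 with 1%, and at 9.10, 9.24, 9.28 and 9.34 with 2.8%. The 20.9% samples were above all others, and those at 1 and 0% oxygen overlapped. PEX5 rose 1.82-fold with 20.9% against 0% oxygen (log2 difference 0.86 ± 0.11, adjusted p = 1.2e-06). Its rise of 0.40 against 2.8% oxygen (adjusted p = 0.0055) was 0.30 with an adjusted p of 0.018 when the 2 replicate 4 arrays were left out.

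**Figure D2:**
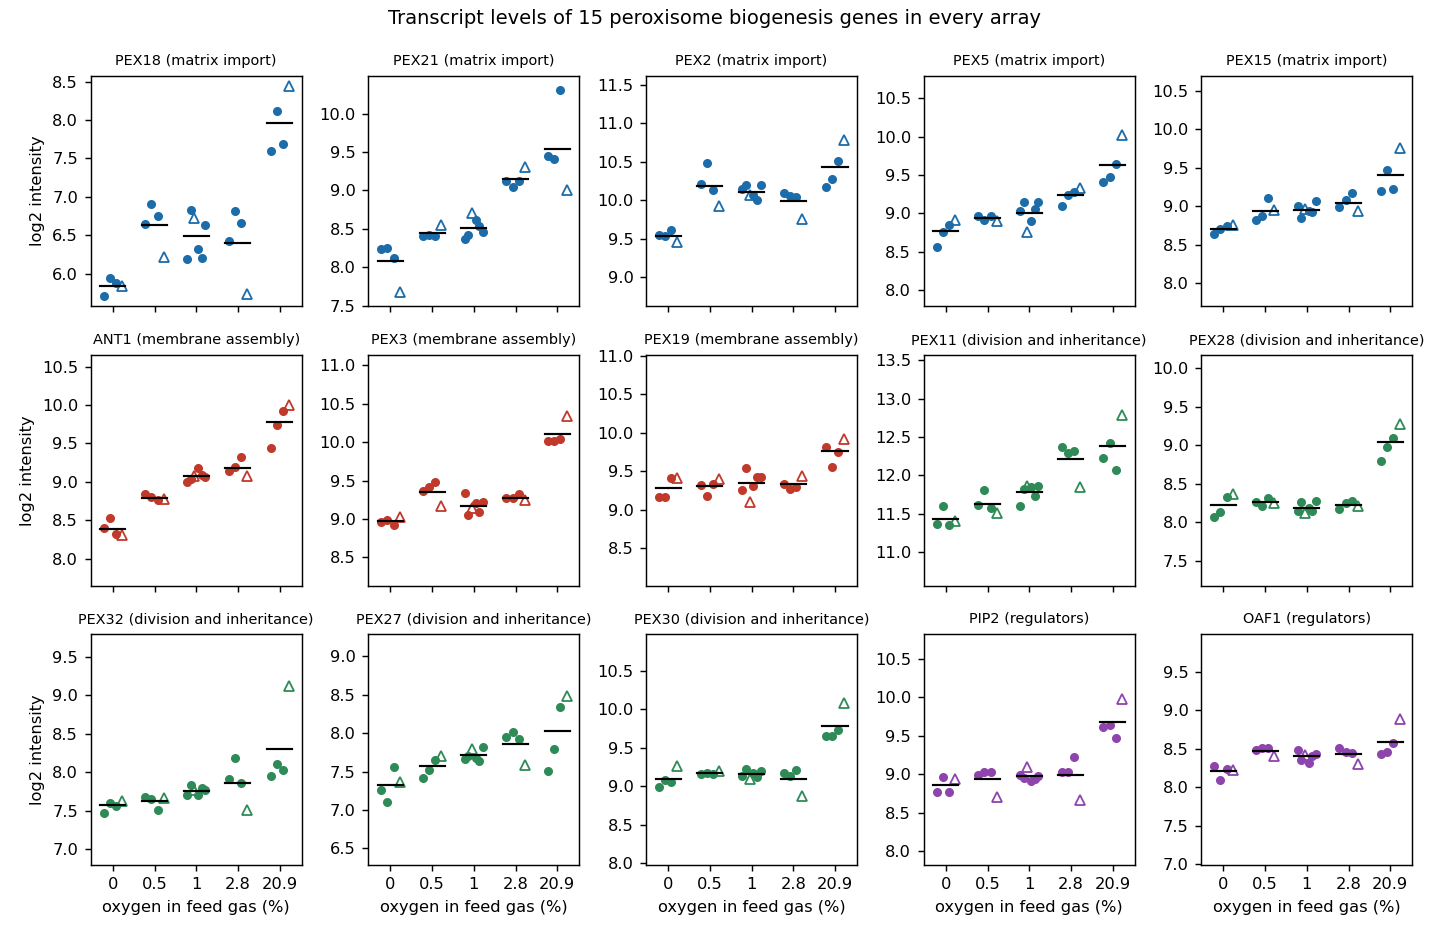
Log2 intensity (y axis) of 15 genes in each of the 22 arrays, by oxygen in the feed gas (x axis), with open triangles for replicate 4 and lines for the mean of each level, every panel spanning 3 log2 units. PEX28, PEX30 and PIP2 stay near their 0% level until 20.9% oxygen, ANT1 is higher at each successive mean, and PEX11 and PEX21 are high already at 2.8% oxygen.

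At the docking complex on the membrane, PEX14, the main docking subunit, ran from 10.14 to 10.53 at 20.9% oxygen and from 9.52 to 9.68 at 0%, a rise of 0.68 ± 0.08 (adjusted p = 2.2e-07). Its partner PEX13 was highest at intermediate oxygen, with 7.49 to 7.67 at 0% oxygen, 7.95 to 8.30 over the 14 intermediate samples and 7.76 to 8.04 at 20.9%. The intermediate mean was higher than that at 0% oxygen by 0.54 ± 0.06 (adjusted p = 3.3e-07), and at 20.9% oxygen PEX13 fell by 0.21 relative to the intermediate mean (SE 0.06, adjusted p = 0.0058). The third docking gene, PEX17, did not pass the test across the 5 levels, with means from 6.80 to 7.05 and a log2 difference of 0.16 between 20.9 and 0% oxygen (95% interval -0.16 to 0.47). PEX8, whose product links docking to the ubiquitin ligases from inside the organelle, ran from 9.82 to 10.13 at 20.9% oxygen and from 9.25 to 9.43 at 0% (0.61 ± 0.07, adjusted p = 5.1e-07).

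The RING-finger ligase subunit gene PEX2 was at 10.17, 10.27, 10.51 and 10.78 at 20.9% oxygen and at 9.54, 9.53, 9.61 and 9.45 at 0% oxygen. It was at 10.21, 10.48, 10.14 and 9.92 at 0.5% oxygen, at 10.00, 10.11 and 10.20 at 1%, and at 10.09, 10.05, 10.04 and 9.76 at 2.8%. Every sample with oxygen was above every sample without it, while the 20.9 and 0.5% samples overlapped. The difference was 0.65 ± 0.12 between 0.5 and 0% oxygen (adjusted p = 1.4e-04) and 0.90 ± 0.12 between 20.9 and 0% (adjusted p = 1.2e-06), a 1.86-fold rise. Against the intermediate mean the rise at 20.9% was 0.34 (adjusted p = 0.0041), and without the 2 replicate 4 arrays it was 0.20 (adjusted p = 0.05), and against 2.8% oxygen 0.45 (adjusted p = 0.003) became 0.26 (adjusted p = 0.05). PEX10, another RING subunit of the same ligase complex, did not pass the test across the levels, with level means from 8.93 to 9.19 and a difference of -0.22 between 20.9 and 0% oxygen (95% interval -0.41 to -0.02, adjusted p = 0.049).

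Receptors are then ubiquitinated by Pex4, which Pex22 anchors, and pulled from the membrane by an ATPase that contains Pex6 and is anchored by Pex15. PEX15 was at 9.20, 9.47, 9.23 and 9.76 at 20.9% oxygen and at 8.64, 8.70, 8.75 and 8.76 at 0% oxygen. Its intermediate values were 8.82, 8.87, 9.11 and 8.95 at 0.5% oxygen, 8.85, 8.95 and 9.06 at 1%, and 8.99, 9.08, 9.18 and 8.94 at 2.8%. The intermediate samples lay above those at 0% and below those at 20.9% oxygen with no overlap on either side. PEX15 rose 1.63-fold with 20.9% against 0% oxygen (0.70 ± 0.10, adjusted p = 2.8e-06), and its rise of 0.36 against 2.8% oxygen (adjusted p = 0.0036) was 0.21 without the 2 replicate 4 arrays (adjusted p = 0.042). For PEX6 the difference between 20.9 and 0% oxygen was 0.10 (95% interval -0.10 to 0.30, level means 8.46 to 8.61), for PEX22 it was 0.15 (-0.03 to 0.33, level means 8.78 to 8.95), and neither passed the test across the levels. PEX4 passed that test (adjusted p = 0.0054) with little difference between the extremes (0.11, 95% interval -0.09 to 0.30), its level at 20.9% oxygen being 0.35 higher than at 2.8% (adjusted p = 0.0033). Without the 2 replicate 4 arrays the PEX4 difference between 20.9 and 2.8% oxygen was 0.21 (adjusted p = 0.052).

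All 3 genes for membrane assembly and transport rose with 20.9% against 0% oxygen, and each also rose against 2.8%. PEX3 encodes the membrane anchor to which the import factor for peroxisomal membrane proteins, Pex19, delivers its cargo. PEX3 was at 10.02, 10.01, 10.05 and 10.35 at 20.9% oxygen and at 8.96, 8.98, 8.92 and 9.02 at 0% oxygen. With 0.5% oxygen it was at 9.37, 9.41, 9.48 and 9.16, with 1% at 9.06, 9.18 and 9.34, and with 2.8% at 9.27, 9.27, 9.33 and 9.24. The levels formed 3 bands without overlap, 0%, the intermediate levels and 20.9%, and within the intermediate band the 0.5% samples were mostly the highest. The rise was 2.19-fold between 20.9 and 0% oxygen (1.13 ± 0.08, adjusted p = 1.2e-10), and most of it, 0.83 ± 0.08, lay between 20.9 and 2.8% (adjusted p = 6.7e-08).

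PEX19 was at 9.82, 9.55, 9.75 and 9.92 at 20.9% oxygen and at 9.16, 9.17, 9.41 and 9.42 at 0% oxygen. Intermediate samples were at 9.32, 9.18, 9.33 and 9.40 with 0.5% oxygen, at 9.10, 9.36 and 9.55 with 1%, and at 9.33, 9.27, 9.30 and 9.44 with 2.8%. The 4 lower levels overlapped throughout and only the samples at 20.9% oxygen stood, narrowly, above all others. PEX19 rose 1.39-fold against 0% oxygen (0.47 ± 0.09, adjusted p = 2.1e-04), and between the intermediate mean and 0% the difference was 0.04 (95% interval -0.12 to 0.20).

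ANT1 encodes the membrane carrier that brings ATP into the peroxisome, where fatty acids of medium length are activated. It was at 9.44, 9.74, 9.93 and 10.00 at 20.9% oxygen and at 8.40, 8.53, 8.32 and 8.31 at 0% oxygen. Samples with 0.5% oxygen were at 8.84, 8.80, 8.76 and 8.78, those with 1% at 8.99, 9.07 and 9.18, and those with 2.8% at 9.14, 9.19, 9.32 and 9.08. Its mean was higher at each successive level, and only the 2.8 and 1% samples overlapped. The differences were 0.40 ± 0.09 between 0.5 and 0% oxygen (adjusted p = 0.0014), 0.39 ± 0.09 between 2.8 and 0.5% (adjusted p = 0.0075) and 0.59 ± 0.09 between 20.9 and 2.8% (adjusted p = 2.0e-05). Between the neighbouring intermediate levels they were 0.28 for 1 against 0.5% (adjusted p = 0.15) and 0.11 for 2.8 against 1% (adjusted p = 0.57). Over the whole range ANT1 rose 2.61-fold (1.39 ± 0.09, adjusted p = 4.3e-11), with the smallest adjusted p of the 30 genes.

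Division and inheritance genes were divided, with 6 of 11 rising and 1 falling with 20.9% against 0% oxygen and a median log2 difference of 0.44. Pex11 elongates the membrane before fission and sets peroxisome number. PEX11 was at 12.23, 12.43, 12.07 and 12.79 at 20.9% oxygen and at 11.36, 11.60, 11.35 and 11.41 at 0% oxygen. It was at 11.61, 11.81, 11.58 and 11.51 with 0.5% oxygen, at 11.61, 11.83 and 11.86 with 1%, and at 12.37, 12.30, 12.32 and 11.86 with 2.8%. In 3 of the 4 samples at 2.8% oxygen PEX11 was thus within the range of the 20.9% samples, and replicate 4 lay with the 1% samples. The rise between 2.8 and 0.5% oxygen was 0.58 ± 0.13 (adjusted p = 0.0046) and between 20.9 and 0% it was 0.95 ± 0.13 (adjusted p = 1.9e-06), or 1.93-fold, while between 20.9 and 2.8% the difference was 0.17 (95% interval -0.10 to 0.43). Without the 2 replicate 4 arrays the rise between 2.8 and 1% oxygen, 0.42 with an adjusted p of 0.043 over all arrays, was 0.54 with an adjusted p of 2.8e-04, and the difference between 20.9 and 2.8% was -0.09.

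PEX25 and PEX27 are paralogues of PEX11, and PEX34 encodes a small membrane protein that works with this family. PEX27 was at 7.50, 7.79, 8.34 and 8.48 at 20.9% oxygen and at 7.27, 7.10, 7.56 and 7.37 at 0% oxygen. It was at 7.42, 7.52, 7.65 and 7.71 with 0.5% oxygen, at 7.64, 7.69 and 7.81 with 1%, and at 7.94, 8.01, 7.92 and 7.58 with 2.8%. The 20.9% samples were spread over nearly the whole range and the lowest of them fell below the highest at 0%, so that the 1.63-fold rise (0.70 ± 0.16, adjusted p = 5.7e-04) came with overlapping samples. PEX25 did not pass the test across the levels (adjusted p = 0.016), with level means from 9.75 to 10.00 and a difference of -0.12 between 20.9 and 0% oxygen (95% interval -0.26 to 0.02). In the single comparison of 20.9 with 2.8% oxygen PEX25 fell by 0.25 (SE 0.07, adjusted p = 0.0048), and by 0.20 without the 2 replicate 4 arrays (adjusted p = 0.033). PEX34 had level means between 9.56 and 9.86 and a difference of -0.0014 between 20.9 and 0% oxygen (95% interval -0.19 to 0.18), the sign of which changed with the normalisation. It was 0.20 lower at 20.9 than at 2.8% oxygen (adjusted p = 0.06), and a difference of -0.31 passed the threshold without the 2 replicate 4 arrays (adjusted p = 0.0046).

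A second family, PEX28 to PEX32, encodes membrane proteins that control the number, size and spacing of peroxisomes at contacts with the endoplasmic reticulum. PEX28 was at 8.80, 8.98, 9.09 and 9.28 at 20.9% oxygen and at 8.07, 8.13, 8.32 and 8.37 at 0% oxygen. The values at 0.5% oxygen were 8.26, 8.21, 8.31 and 8.26, those at 1% were 8.12, 8.17 and 8.28, and those at 2.8% were 8.17, 8.24, 8.28 and 8.21. All 18 samples with less than 20.9% oxygen shared a band of 8.07 to 8.37, below the 20.9% samples. PEX28 rose 1.75-fold against 0% oxygen (0.81 ± 0.08, adjusted p = 4.6e-08) and by 0.81 ± 0.08 against 2.8% (adjusted p = 1.6e-07), and between the intermediate mean and 0% the 95% interval of the difference was -0.14 to 0.14.

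PEX30 was at 9.65, 9.66, 9.73 and 10.08 at 20.9% oxygen and at 8.98, 9.07, 9.05 and 9.26 at 0% oxygen. It was at 9.15, 9.17, 9.15 and 9.19 with 0.5% oxygen, at 9.09, 9.15 and 9.23 with 1%, and at 9.17, 9.14, 9.21 and 8.88 with 2.8%. As for PEX28, the lower 4 levels overlapped and the 20.9% samples stood above them. The rise was 1.61-fold against 0% oxygen (0.69 ± 0.09, adjusted p = 9.0e-07) and the difference of the intermediate mean from 0% was 0.05 (95% interval -0.10 to 0.20).

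PEX32 was at 7.96, 8.10, 8.03 and 9.12 at 20.9% oxygen and at 7.48, 7.60, 7.57 and 7.63 at 0% oxygen. With 0.5% oxygen it was at 7.68, 7.65, 7.51 and 7.67, with 1% at 7.70, 7.77 and 7.84, and with 2.8% at 7.91, 8.18, 7.86 and 7.52. The 20.9% samples were above those at 0%, but 1 of them was far above the other 3, which overlapped with the 2.8% samples. The rise of 0.73 ± 0.17 against 0% oxygen (adjusted p = 0.001) was 0.46 without replicate 4 at 20.9% (adjusted p = 5.6e-04). PEX29 ran from 9.79 to 10.26 at 20.9% oxygen and from 9.47 to 9.64 at 0% (0.44 ± 0.10, adjusted p = 5.0e-04), and its values at 2.8% oxygen, 9.30 to 9.63, were below those at 0.5%, 9.66 to 9.99. PEX31, a paralogue of PEX30 and PEX32, was the only one of the 30 genes to fall, with 7.76, 7.42, 7.42 and 7.43 at 20.9% oxygen and 7.82, 8.07, 7.97 and 8.01 at 0% oxygen (-0.46 ± 0.08, adjusted p = 6.8e-05). Its samples at the 2 levels did not overlap, and against 2.8% oxygen it fell by 0.41 (SE 0.08, adjusted p = 4.0e-04). PEX31 was among the dimmest 25% of genes, so how far its values lay above the background cannot be told.

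Inp1, which tethers peroxisomes in the mother cell, and Inp2, which hands them to the myosin motor for transport to the bud, act in inheritance, and neither gene passed the test across the levels. INP1 had level means from 8.34 to 8.56 and a difference of 0.23 between 20.9 and 0% oxygen (95% interval 0.06 to 0.40, adjusted p = 0.021). INP2 had level means from 7.70 to 7.92 and a difference of 0.17 (95% interval -0.03 to 0.37).

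**Figure D3:**
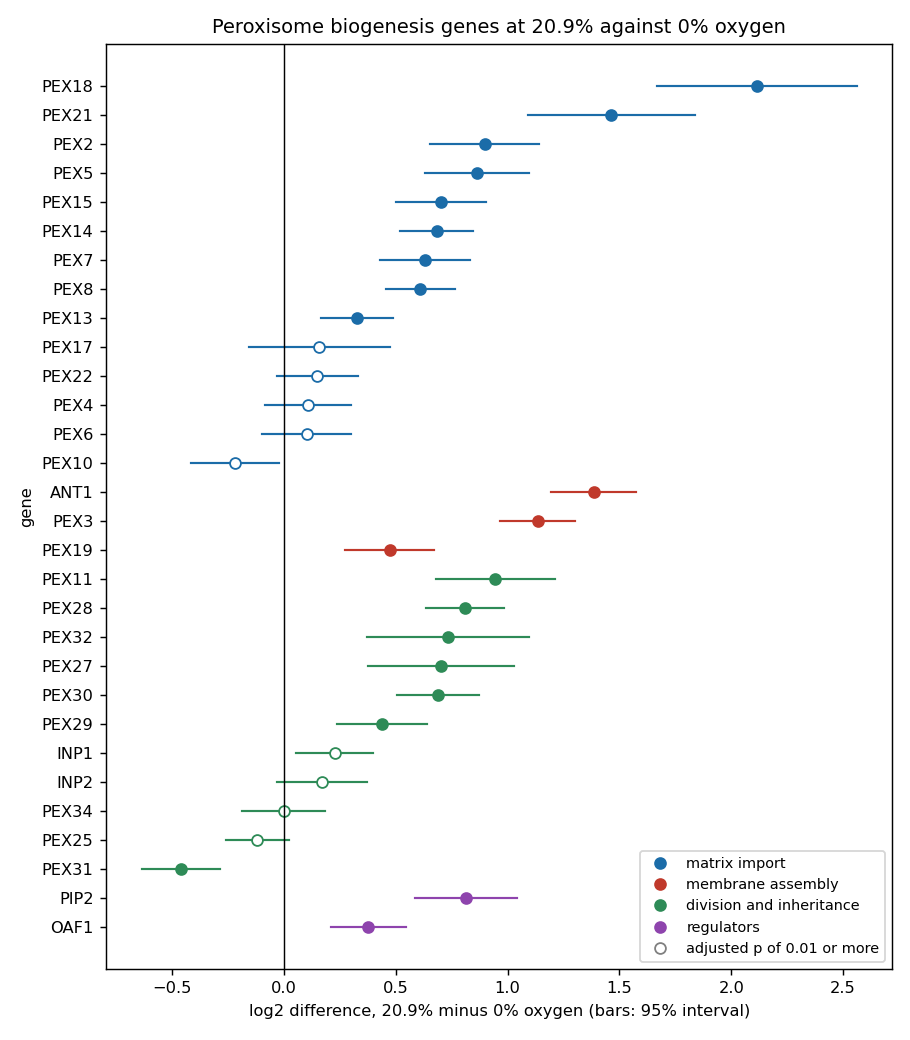
Log2 difference between 20.9 and 0% oxygen (x axis) of each of the 30 genes (y axis, ordered by role and size), with bars for the 95% interval and open circles where the adjusted p was 0.01 or more. PEX18 has the largest difference at 2.11, all genes of membrane assembly and both regulators lie to the right of 0, and PEX31 at -0.46 is the only filled circle to the left.

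Oaf1 and Pip2 form the dimer that binds oleate response elements, and both genes rose with 20.9% against 0% oxygen. PIP2 was at 9.62, 9.64, 9.47 and 9.97 at 20.9% oxygen and at 8.77, 8.96, 8.77 and 8.94 at 0% oxygen. It was at 8.98, 9.02, 9.02 and 8.70 with 0.5% oxygen, at 8.91, 8.97 and 9.09 with 1%, and at 9.04, 9.03, 9.23 and 8.67 with 2.8%. The 20.9% samples stood above the rest and the 4 lower levels overlapped. PIP2 rose 1.76-fold (0.82 ± 0.11, adjusted p = 1.8e-06), and by 0.68 ± 0.11 against 2.8% oxygen alone (adjusted p = 3.1e-05).

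OAF1 was at 8.43, 8.45, 8.58 and 8.88 at 20.9% oxygen and at 8.28, 8.10, 8.24 and 8.22 at 0% oxygen. It was at 8.48, 8.51, 8.51 and 8.40 with 0.5% oxygen, at 8.31, 8.41 and 8.49 with 1%, and at 8.52, 8.45, 8.45 and 8.31 with 2.8%. Every sample with oxygen was above those without, and the 20.9% samples overlapped with all intermediate levels. OAF1 rose 1.30-fold with 20.9% against 0% oxygen (0.38 ± 0.08, adjusted p = 4.1e-04), with 0.23 ± 0.07 between the intermediate mean and 0% (adjusted p = 0.0074) and 0.15 between 20.9% and the intermediate mean (95% interval 0.02 to 0.29, adjusted p = 0.051).

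The response was then divided at the intermediate levels, by setting the mean of 0.5, 1 and 2.8% oxygen against 0% and setting 20.9% against that mean. With intermediate against 0% oxygen 10 of the 30 genes rose and none fell (of all genes, 33.1% were called, 15.8% as higher and 17.3% as lower), and with 20.9% against intermediate oxygen 17 rose and 2, PEX13 and PEX31, fell (of all genes, 47.7% were called, 21.6% as higher and 26.1% as lower). The median log2 differences of the 30 genes were 0.14 and 0.34 for these comparisons, and those of all genes were -0.04 in both. Both comparisons use the same intermediate arrays. Of the 10 genes, 6 belonged to matrix import, 2 to membrane assembly, 1 was PEX11 and 1 was OAF1.

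Both rises were called for 7 genes, PEX18, PEX21, PEX2, PEX15, PEX3, ANT1 and PEX11 (4.90% of all genes had this pattern). For 10 genes, PEX5, PEX14, PEX8, PEX4, PEX19, PEX28, PEX29, PEX30, PEX32 and PIP2, only the rise at 20.9% over intermediate oxygen was called (13.9% of all genes). PEX7 and OAF1 had only the rise at intermediate over 0% oxygen (5.58% of all genes), PEX13 rose and then fell (5.29%), PEX31 had only the fall at 20.9% (15.4%), and 9 genes had no call on either side (37.7%). Of the 11 division and inheritance genes, PEX11 alone rose with intermediate against 0% oxygen. Without the 2 replicate 4 arrays, 14 genes rose with intermediate against 0% oxygen, with PEX5, PEX8, PEX27 and PEX32 joining, and 16 were called with 20.9% against intermediate oxygen, with PEX2, PEX4 and PEX31 lost. Without replicate 4 at 0% oxygen alone, 6 genes rose with intermediate against 0% oxygen and none fell, while 28.6% of all genes were called in either direction.

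**Figure D4:**
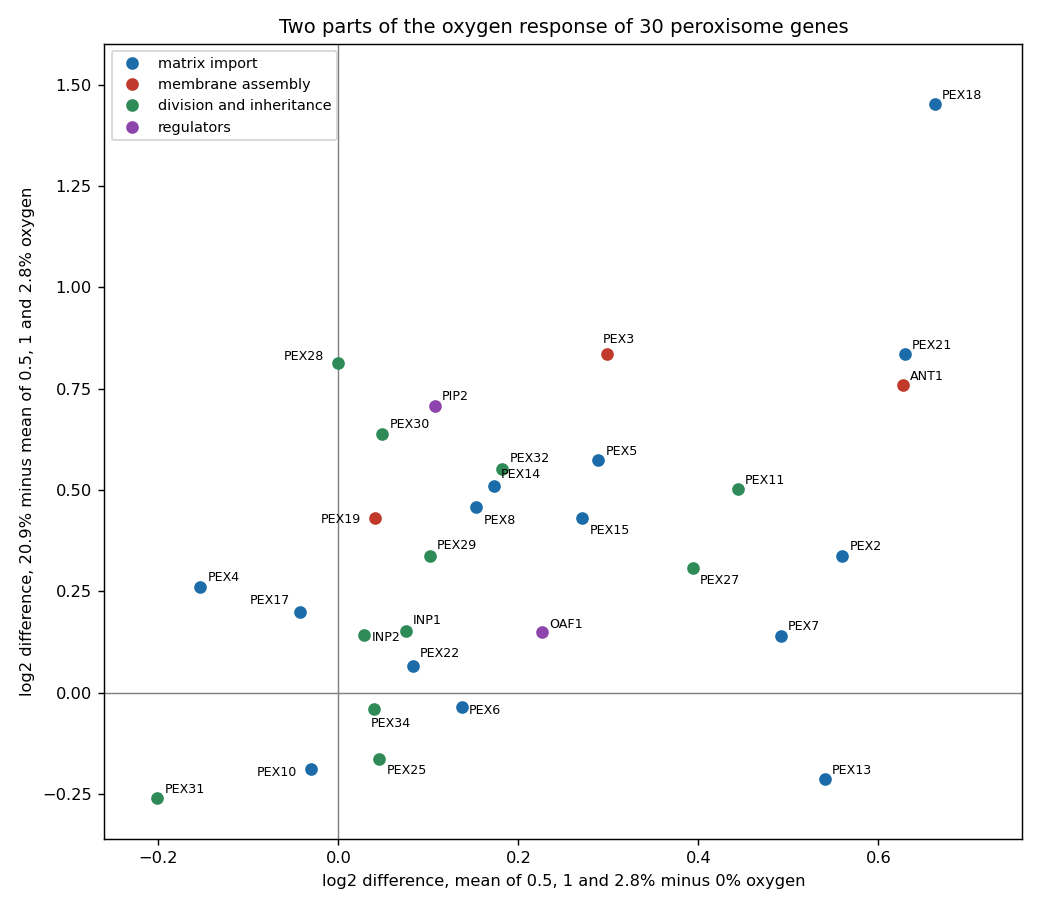
Each point is 1 of the 30 genes, coloured by role, with the log2 difference of the mean of 0.5, 1 and 2.8% oxygen from 0% on the x axis and that of 20.9% oxygen from the intermediate mean on the y axis; the 2 axes share the intermediate arrays. PEX18, PEX21 and ANT1 are high on both, PEX28, PEX30 and PIP2 only on the y axis, PEX7 mainly on the x axis, and PEX13 is positive on the x axis and negative on the y axis.

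Between neighbouring levels, 6 genes rose with 0.5% against 0% oxygen, which were PEX7, PEX18, PEX13, PEX2, PEX3 and ANT1, and none fell (of all genes, 26.9% were called, 13.3% as higher and 13.6% as lower). Without the 2 replicate 4 arrays 9 were called, PEX29 (0.32, adjusted p = 0.0017) and OAF1 (0.27, adjusted p = 6.7e-04) joining as higher and PEX31 (-0.28, adjusted p = 0.0091) as lower, where over all arrays these had adjusted p of 0.012, 0.012 and 0.011. With 1 against 0.5% oxygen no gene was called by limma and 5 had an unadjusted p under 0.05. Of all 5449 genes, 0.165% were called and 710 had an unadjusted p under 0.05. With 2.8 against 1% oxygen again none was called and 6 had an unadjusted p under 0.05. The share of all genes called was 1.71%, and 888 of the 5449 had an unadjusted p under 0.05. Over the wider interval of 2.8 against 0.5% oxygen ANT1 and PEX11 rose. Of all genes, 5.67% were called, 2.59% as higher and 3.08% as lower. An unadjusted p under 0.05 was seen for 11 of the genes described here and for 1539 of all 5449 genes. The count of 2 genes called, in either direction, was not steady. It was 5 (4 higher, 1 lower) without replicate 4 at 20.9% oxygen and 4 (3 higher, 1 lower) without replicate 3 at 20.9%. No gene was called without replicate 1 or 3 at 0.5% or replicate 1, 2 or 3 at 2.8%. The count was 1, a rise, without replicate 2 at 0.5% or replicate 3, 4, 6 or 7 at 1%. Without replicate 4 at 0.5% it was 1, a fall. Of all genes, 2.77 to 8.07% were called in these alternatives. Without both replicate 4 arrays PEX21, PEX32 (0.36, adjusted p = 0.0021) and PEX34 (0.32, adjusted p = 0.0078) joined ANT1 and PEX11, where over all arrays PEX32 had 0.24 (adjusted p = 0.39) and PEX34 0.30 (adjusted p = 0.028).

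With 20.9 against 2.8% oxygen 14 genes rose and 3, PEX13, PEX25 and PEX31, fell, while 40.5% of all genes were called, 18.6% as higher and 21.9% as lower. The samples did not overlap for 15 genes that were higher and 2 that were lower at 20.9% oxygen (of all genes, 18.8 and 20.7%). The count of 17 became 14 without the 2 replicate 4 arrays, 12 of which were among the 17. It was 11 without the 2 directly centrifuged samples, where 28.5% of all genes were called. In a fit of these 2 levels alone it was 6, with 17.5% of all genes called.

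Genes that are paralogues, or whose products act together, were set against each other in 13 pairs and 3 comparisons each, by exact permutation of the samples, two-sided. With 4 samples against 4 the smallest p such a test can give is 0.0286. Over the 39 tests this became an adjusted p of 0.07, and no pair was called at 0.05. A pair at this limit passes after adjustment only if enough other pairs reach it too, so these tests cannot decide about a single pair. With 20.9% against 0% oxygen the log2 change of PEX2 exceeded that of PEX10 by 1.12, and that of PEX11 exceeded that of PEX25 by 1.06. The change of PEX30 exceeded that of PEX31 by 1.15, and that of PEX3 exceeded that of PEX19 by 0.66. The change of PEX15 exceeded that of PEX6 by 0.60, that of PIP2 that of OAF1 by 0.44 and that of PEX28 that of PEX29 by 0.37. For PEX31 minus PEX32 the difference was -1.19. Each of these had the smallest exact p of 0.0286. Other pairs were above it, with 0.24 for PEX11 minus PEX27 (exact p = 0.4) and -0.82 for PEX25 minus PEX27 (exact p = 0.0571). PEX30 minus PEX32 gave -0.05 (exact p = 0.971) and PEX4 minus PEX22 gave -0.04 (exact p = 0.771). For the co-receptors PEX18 and PEX21 the difference of change was 0.65 (exact p = 0.257, adjusted p = 0.36) with 20.9% against 0% oxygen, and with 2.8 against 0.5% it was -0.93 (exact p = 0.0571, adjusted p = 0.11), PEX21 having the larger change.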

How the data were processed

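Total RNA of 22 chemostat samples was hybridised to Affymetrix yeast arrays. The deposited values are log2 intensities, which the authors obtained by RMA (background correction, quantile normalisation and probe set summary), and they were used without further scaling. Of 5716 probe sets, 218 had no gene name, and for 47 genes with several probe sets 1 was kept, which gave 5449 genes. Group means of the 5 levels were fitted in 1 model of all 22 arrays with limma 3.58.1 in R 4.3.3, two-sided, with Benjamini-Hochberg adjustment over all genes and a threshold of 0.01, as in the study's methods. The number of arrays limits the precision. Data were also simulated for 20.9 against 0% oxygen with 50 genes changed at each size. Of these, 6 were called at 1.25-fold, 33 at 1.5-fold, 44 at 2-fold and 50 at 4-fold. No other of the 5449 genes was changed there, while 50.6% of all genes were called in the data. The adjustment was therefore stricter in the simulation, and its recovery can be lower than that of the tests reported here. The simulated noise was drawn independently for each gene and array, while some samples in the data share a culture. For that reason the recovery can also be too high. Within each role, single values are given for the genes with the largest difference between 20.9 and 0% oxygen among those called across the levels, up to 5 for import and for division and all for the other roles. The genes, lists and pairs were chosen with earlier results of these data known. Alternatives varied the scaling, the probe set chosen, the variance estimate, array weights, the levels in the fit, a block for replicate number and the arrays included. Replicate 1 at 1% oxygen and 4 further peroxisome genes were not analysed here.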

Additional observations from a re-analysis of the deposited data

Results flagged for a closer look

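In 150 tests of single levels for a sample far from the others (levels of 4 or 6 samples), 11 samples passed Dixon's limit, and chance alone passes about 1 in 20. At 20.9% oxygen replicate 4 was high for PEX3 (10.35, the others 10.01 to 10.05), PEX32 (9.12, the others 7.96 to 8.10) and INP1 (8.71, the others 8.50 to 8.54), and replicate 1 was high for PEX31 (7.76, the others 7.42 to 7.43). At 2.8% oxygen replicate 4 was low for PEX2 (9.76, the others 10.04 to 10.09) and PEX11 (11.86, the others 12.30 to 12.37) and high for PEX6 (8.81, the others 8.51 to 8.53). At 0.5% oxygen replicate 4 was high for PEX21 (8.55, the others 8.41 to 8.42) and low for PIP2 (8.70, the others 8.98 to 9.02), and replicate 2 was high for PEX4 (7.59, the others 7.31 to 7.34). At 0% oxygen replicate 4 was low for PEX34 (9.55, the others 9.69 to 9.72).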

How the results depend on the processing

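The count of 21 genes called with 20.9% against 0% oxygen held, with the same 21 genes, without any single array, with both replicate 4 arrays left out together (an alternative chosen after seeing the data), and under median centring, repeated quantile normalisation, another choice of probe sets, another variance estimate and array weights. It was 17 with only these 2 levels in the fit, where PEX13 (0.33), PEX27 (0.70), PEX32 (0.73) and OAF1 (0.38) kept their differences with adjusted p of 0.016, 0.019, 0.023 and 0.019. The sign of PEX34 turned under median centring (0.0203), under repeated quantile normalisation (0.0165) and without some single arrays (-0.0945 to 0.0534).

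With array weights the genes called were 17 for intermediate against 0% oxygen and 10 for 0.5 against 0%. They were 8 for 1 against 0.5%, 6 for 2.8 against 1% and 12 for 2.8 against 0.5%. Of all genes, 46.5, 45.9, 20.4, 15.8 and 31.9% were called in these 5 comparisons. When the fit held just the levels being compared, 1 gene was called for 2.8 against 1% (of all genes, 2.92%). In such fits 1 was called for 2.8 against 0.5% (2.53%) and 6 for 20.9 against 2.8% (17.5%). Without the 2 directly centrifuged samples, 1 gene was called for 2.8 against 0.5% (of all genes, 2.24%) and 11 for 20.9 against 2.8% (28.5%). Without both replicate 4 arrays, 1 was called for 2.8 against 1% (2.9%) and 5 for 2.8 against 0.5% (9.93%). Leaving out single arrays gave 20 to 23 genes across the levels, 16 to 20 for 20.9% against intermediate, 6 (without replicate 4 at 0%) to 13 for intermediate against 0%, 5 to 9 for 0.5 against 0%, 0 to 1 for 2.8 against 1%, 0 to 5 for 2.8 against 0.5% and 13 to 17 for 20.9 against 2.8%. Where the construction of an alternative does not show it, the cause was not tested.

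With the replicate number as a block, 6 genes were called for intermediate against 0% oxygen and 0 for 2.8 against 0.5%. Of all genes, 25.6 and 2.77% were called in these comparisons. The replicate numbers gave no clear pairing of the samples. Deviations of same-numbered samples correlated from -0.59 to 0.58 (median 0.051), and 13 of 36 pairs were over 0.1. For differently numbered samples they ran from -0.60 to 0.64 (median -0.0073), with 41 of 156 pairs over 0.1. The best correlated array of another level had the same number for 4 of 22 arrays. Whether a weak pairing exists was not tested. A search of promoters for oleate response elements was not run because no promoter sequence was used. Without the dimmest 25% of genes 22 of the 30 were tested and 16 were called with 20.9% against 0% oxygen.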

Other observations

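All 15 peroxisomal enzyme genes on a list of fatty acid oxidation and related functions rose with 20.9% against 0% oxygen, with a median log2 difference of 2.70 (6.50-fold) against 0.62 for the 30 biogenesis genes, the difference between the lists not being tested. The peroxisomal catalase gene CTA1 had the largest difference (6.18 ± 0.23, adjusted p = 3.7e-15), followed by FOX2 of beta-oxidation (3.77 ± 0.18, adjusted p = 1.4e-13), PXA1, a subunit of the fatty acid importer (3.59 ± 0.17, adjusted p = 2.6e-13), the NADP-dependent isocitrate dehydrogenase gene IDP3 (3.21 ± 0.18, adjusted p = 3.9e-12) and DCI1, a gene of the isomerase family (3.14 ± 0.25, adjusted p = 7.6e-10). At 0% oxygen CTA1 was at 5.94 to 6.74 and DCI1 at 6.14 to 6.40. Whether these levels were above the background cannot be told, so the size of their differences is uncertain. With intermediate against 0% oxygen 13 of the 15 rose, and with 2.8 against 0.5% oxygen 8 rose.

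Other genes with a part in peroxisome import, fission, transport, turnover or regulation, 11 of which were measured, moved in both directions. With 20.9% against 0% oxygen 3 rose and 2 fell, with a median log2 difference of 0.05. ATG36, the receptor gene for peroxisome turnover by autophagy, was at 8.36, 8.93, 8.62 and 9.40 at 20.9% oxygen and between 7.85 and 8.10 at 0% oxygen, a rise of 0.83 ± 0.20 (adjusted p = 0.0013). MDV1 and DNM1, whose products also divide mitochondria, were highest at intermediate oxygen. Their intermediate means exceeded 0% oxygen by 1.25 ± 0.07 for MDV1 (adjusted p = 4.9e-12) and 0.49 ± 0.07 for DNM1 (adjusted p = 3.1e-06), and at 20.9% oxygen they fell by 0.47 and 0.61 against the intermediate mean (adjusted p = 1.2e-05 and 1.6e-07). ADR1, which activates peroxisomal genes when glucose is low, rose by 0.76 ± 0.09 with intermediate against 0% oxygen (adjusted p = 3.0e-07), and its difference between 20.9% and intermediate oxygen was 0.0050. The 2 genes to fall with 20.9% against 0% oxygen were MYO2, the motor that carries peroxisomes to the bud (-0.37 ± 0.09, adjusted p = 0.0013), and OAF3, a gene for a regulator of oleate-responsive genes (-0.40 ± 0.10, adjusted p = 0.0026). MSP1, which clears wrongly inserted membrane proteins, differed by -0.23 (adjusted p = 0.04) and fell by 0.40 against the intermediate mean (adjusted p = 1.5e-04).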
